A study of Mus musculus with 6 samples.

Results

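Transcripts of 10 genes that bring fatty acids into the cell, bind them there and activate them were followed in the livers of insulin-resistant (IR) mice. They were Cd36, Fabp1, Fabp2, Fabp4, Fabp5, Slc27a2, Acsl1, Acsl5, Vldlr and Lpl, taken as the rows of the count table with those gene names, 10 of 54532 genes in all. The mice were male C57BL/6J animals, fed a high-fat diet (HFD) for 6 weeks from 8 weeks of age. They were fasted for 16 h, and 3 then received an intraperitoneal injection of insulin at 0.75 units per kg and 3 received bovine serum albumin (BSA), the vehicle, and livers were collected 6 h later. The comparison of the groups addresses which liver transcripts still respond to insulin during IR. Both groups had the same diet and fast, and a group on normal diet was not analysed here. Each library came from the whole liver tissue of 1 mouse, so fewer cells of a type and less RNA per cell cannot be told apart.

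Long-chain fatty acids reach hepatocytes either free, bound to albumin, or inside lipoprotein particles, whose triglycerides lipoprotein lipase (the product of Lpl) cuts at the vessel wall. Membrane proteins such as CD36 and the very long-chain acyl-CoA synthetase and transporter encoded by Slc27a2 take them up, and fatty acid binding proteins (the Fabp family) carry them through the cytosol. The long-chain acyl-CoA synthetases (the Acsl family) join them to coenzyme A, after which they can be oxidized, stored or exported. In liver, Fabp1 is the major binding protein, and several of these genes are known targets of peroxisome proliferator-activated receptor α (PPARα), the nuclear receptor of the fasted liver.

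PPARα binds DNA together with the retinoid X receptor, at a repeated short motif whose copies are 1 base apart (a DR1 element). The promoter windows of the genes were therefore searched for the letters AGGNCANAGGNCA on both strands. RefSeq promoter windows (GRCm38.p6, from 250 bases before to 50 bases after each start) were given for 7 of the 10 genes, in 9 windows, and not for Fabp4, Fabp5 and Lpl. Fabp1 was the gene among these 7 with a match. Its site lies at chr6:71199812-71199824 on the strand opposite to the gene, at bases -67 to -55 from the RefSeq start. Over all windows, 125 of 32851 (0.381%) held a match. Among 80 other genes of the pathway with a window, Apoc2, which encodes the activator of lipoprotein lipase, had one, at bases -122 to -110. A match describes the letters and does not show binding. The Fabp1 stretch below runs from chr6:71199629-71199826 (GRCm38.p6, plus strand, 198 bases) and ends at the last base before the GENCODE start of the gene, with the matching letters in capitals. The Fabp2 stretch, shown because Fabp2 is the intestinal paralogue that was followed beside Fabp1, covers chr3:122894822-122895071 (GRCm38.p6, plus strand, 250 bases) and held no match.
Fabp1: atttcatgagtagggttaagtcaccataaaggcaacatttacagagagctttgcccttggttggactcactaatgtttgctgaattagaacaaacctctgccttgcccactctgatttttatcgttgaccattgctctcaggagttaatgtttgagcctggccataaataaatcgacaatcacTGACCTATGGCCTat
Fabp2: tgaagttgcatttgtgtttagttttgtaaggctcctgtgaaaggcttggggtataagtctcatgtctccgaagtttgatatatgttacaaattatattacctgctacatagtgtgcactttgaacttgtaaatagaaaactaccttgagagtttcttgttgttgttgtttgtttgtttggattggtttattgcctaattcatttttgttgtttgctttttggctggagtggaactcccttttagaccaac

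Levels are given as CPM, read counts divided by a library size that the trimmed mean of M values (TMM) had adjusted, and group values are mean ± s.d. over 3 mice. Library totals ran from 18449986 to 21827619 counts, and about 20.5 counts lie behind 1 CPM. Vehicle replicate 2 stood furthest from the other libraries, and vehicle replicate 3 stood apart to a lesser degree. Pairs with vehicle replicate 2 had Pearson correlations of log2 CPM of 0.878 to 0.9205. Vehicle replicate 3 correlated at 0.948 to 0.954 with vehicle replicate 1 and the insulin libraries, which correlated at 0.9795 to 0.988 among themselves. In vehicle replicate 2, the log2 level relative to the other libraries changed by -1.16 for every 10 percentage points of transcript GC content. The other 5 libraries were at -0.064 to 0.19. Vehicle replicate 2 had counts for 16470 genes against 18389 to 18874. Differences of the 10 genes that rest on vehicle replicate 2 are given below with and without it.

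Fabp1 was the most abundant of the 10 genes and the one whose groups did not overlap, with all 3 insulin-treated mice above all 3 vehicle-treated mice. The difference did not pass the test across all genes, and neither did that of any other of the 10. By edgeR's quasi-likelihood test with Benjamini-Hochberg adjustment, 0 of the 10 genes had an adjusted p under 0.05, as did 0 of 13377 genes tested (0%). The smallest adjusted p among the 10 was 0.852. Before adjustment, p was under 0.05 for 0 of the 10 by edgeR, 1 by DESeq2 (Fabp1) and 0 by limma voom with sample quality weights, against 383, 507 and 213 of 13377 genes. The study's criteria, a log2 fold change of 0.35 or more in either direction and p under 0.05 before adjustment, were likewise met by 0 of the 10 in the edgeR fit, beside 134 genes (1.0%) higher and 249 (1.86%) lower with insulin. Groups did not overlap for 1 of the 10 genes in the higher direction, beside 836 of all genes tested (6.25%), and for 0 in the lower direction, beside 808 (6.04%). Log2 fold changes were positive for 5 and negative for 5, with a median of -0.020 beside -0.017 over all genes. All 10 passed the filter on low counts.

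**Figure D1:**
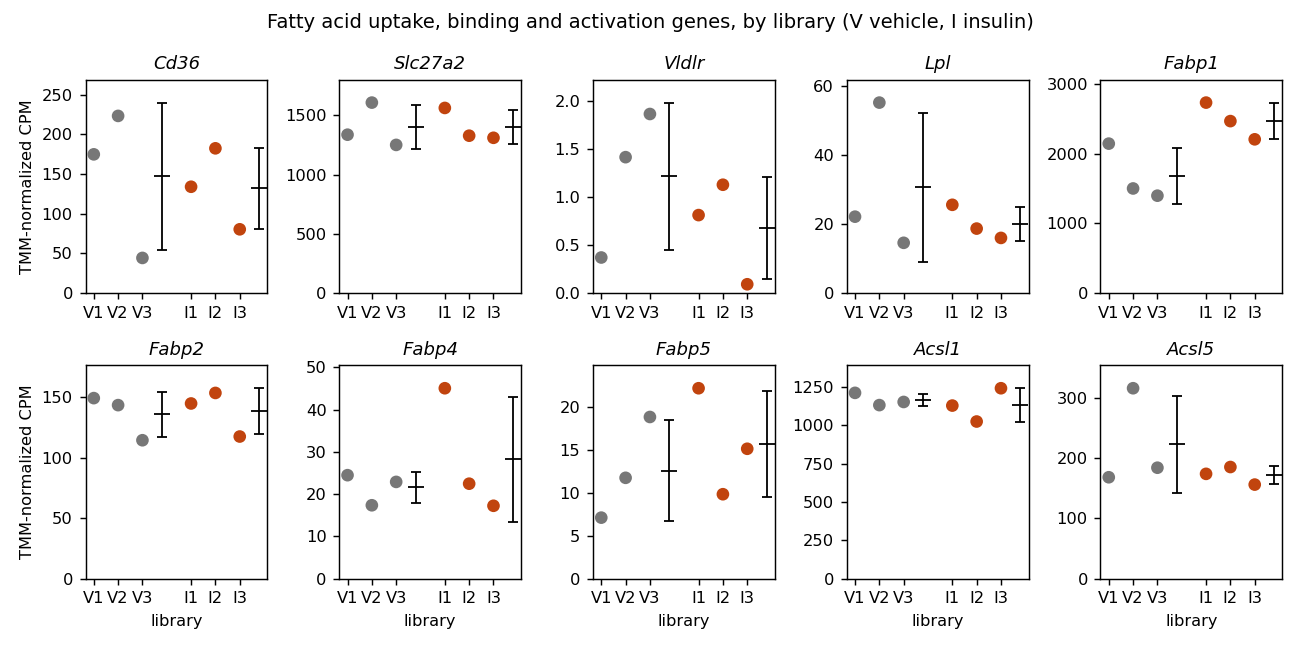
TMM-normalized CPM (y axis, from 0) of the 10 genes in each library (x axis; V, vehicle; I, insulin), 1 panel per gene. Points are mice, and the horizontal mark with its bar to the right of each group is the mean ± s.d. of 3 mice. Fabp1 ran from 1397 to 2143 CPM with vehicle and from 2205 to 2731 CPM with insulin; the ranges of the groups overlap in the other 9 panels.

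Compared per kilobase of the longest coding transcript, the levels of the 10 genes spread over more than 4 orders of magnitude. Fabp1 was at 3750 ± 955 CPM per kilobase (s.d. over all 6 libraries), Slc27a2 at 480 ± 50.6, Acsl1 at 294 ± 19.4 and Fabp2 at 142 ± 17.4. Below these came Acsl5 at 46.5 ± 13.9, Cd36 at 41.1 ± 19.8, Fabp4 at 27.8 ± 11.5, Fabp5 at 14.4 ± 5.77 and Lpl at 6.15 ± 3.67 CPM per kilobase. Vldlr was last, at 0.119 ± 0.0825. The first 4 genes did not overlap with their neighbours in this order over the 6 libraries, and neither did Lpl and Vldlr. The ranges of Acsl5 and Cd36, Cd36 and Fabp4, Fabp4 and Fabp5, and Fabp5 and Lpl overlapped, so their order is not resolved beyond the spread.

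**Figure D2:**
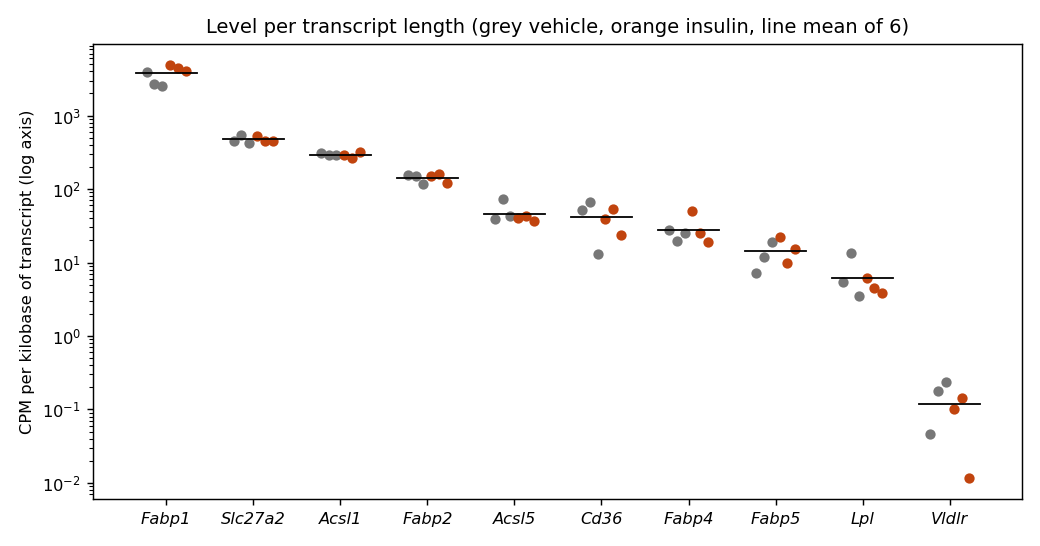
CPM per kilobase of transcript (y axis, log scale) of each gene (x axis, ordered by mean) in the 6 libraries, with vehicle in grey, insulin in orange and a line at the mean of 6. Fabp1 lies highest, at 2526 to 4939 CPM per kilobase, and Vldlr lowest, at 0.0116 to 0.233.

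Lpl encodes lipoprotein lipase, which frees fatty acids from circulating triglycerides and is made mainly by adipose tissue and muscle, with low amounts in adult liver. The gene lies on chromosome 8 (68880491 to 68907448, plus strand, mouse build 38). Its level was 22.1, 55.1 and 14.5 CPM in vehicle replicates 1, 2 and 3 and 25.5, 18.7 and 16.0 CPM in insulin replicates 1, 2 and 3. Vehicle replicate 2 was the highest library, and the other 5 overlapped. The mean was 30.6 ± 21.5 CPM with vehicle and 20.0 ± 4.93 CPM with insulin, a log2 fold change of -0.61 ± 0.48 (SE; adjusted p = 0.852, edgeR). It was 0.13 without vehicle replicate 2 and -0.30 with an offset for GC content, so the sign rested on that library.

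Vldlr encodes the very-low-density lipoprotein receptor, which takes up triglyceride-rich particles and is scarce in healthy liver. It lies on chromosome 19 (27216484 to 27254231, plus strand). The libraries held 7, 23 and 39 counts with vehicle and 18, 26 and 2 with insulin. In CPM these came to 0.370, 1.41 and 1.86 with vehicle and 0.810, 1.13 and 0.0923 with insulin. Insulin replicate 3 was lowest, vehicle replicate 3 highest, and the groups overlapped. The log2 fold change of -0.84 ± 0.84 (SE; adjusted p = 0.853, edgeR) had a 95% confidence interval from -2.78 to 1.11, the widest of the 10 genes. At these counts a difference within that interval was not excluded, and voom gave 0.13. Leaving out 1 library gave -0.31 without insulin replicate 3, -0.37 without vehicle replicate 3 and -1.41 without insulin replicate 2.

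Cd36 encodes the fatty acid translocase, a scavenger receptor whose hepatic level is known to increase on fat-rich diets. The gene lies on chromosome 5 (17781690 to 17888801, minus strand). Vehicle replicates 1, 2 and 3 had 175, 223 and 44.4 CPM of Cd36, and insulin replicates 1, 2 and 3 had 134, 182 and 80.4 CPM. Vehicle mice spanned the whole range, with the highest value in replicate 2 and the lowest in replicate 3, and enclosed all 3 insulin values. The highest library was 5.03 times the lowest, beside a median of 2.27 over all genes tested. The log2 fold change was -0.16 ± 0.56 (SE; adjusted p = 0.943, edgeR), and it had a 95% confidence interval from -1.44 to 1.13. Its direction was not stable, at 0.28 without vehicle replicate 2, 0.28 with a GC offset, 0.12 without insulin replicate 3 and -0.59 without vehicle replicate 3. Of all 10 genes, Cd36 had the lowest GC content of its transcript, 38.4%, beside 40.3 to 52.1% for the other 9.

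Slc27a2 encodes FATP2, a very long-chain acyl-CoA synthetase that also serves hepatocytes as a fatty acid transporter. It lies on chromosome 2 (126552407 to 126588243, plus strand) and overlaps Gm26697 on the opposite strand, which had at most 10 counts per library. Values were 1337, 1608 and 1251 CPM in vehicle replicates 1, 2 and 3 and 1563, 1329 and 1311 CPM in insulin replicates 1, 2 and 3. Each group held 1 library above 1500 CPM, and the groups overlapped. The means of 1399 ± 186 and 1401 ± 141 CPM differed by less than the spread, with a log2 fold change of 0.0022 ± 0.25 (SE; adjusted p = 0.998, edgeR). The 95% confidence interval of the fold ran from 0.673 to 1.49. Among the 6 Slc27a genes, Slc27a2 took 49.1 to 59.2% of the family's CPM per kilobase and Slc27a5, the bile acid and very long-chain acyl-CoA synthetase FATP5, took 39.2 to 49.7%. Slc27a1 and Slc27a4 took at most 0.689 and 1.29%, and Slc27a3 and Slc27a6 took at most 0.0314 and 0.0132%.

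Fabp1 encodes liver fatty acid binding protein, which carries fatty acids and acyl-CoA in hepatocytes. The gene lies on chromosome 6 (71199827 to 71205023, plus strand) downstream of the site printed above, and no other annotated gene overlaps it. Vehicle replicates 1, 2 and 3 had 2143, 1500 and 1397 CPM of Fabp1, and insulin replicates 1, 2 and 3 had 2731, 2466 and 2205 CPM. The lowest insulin value lay just above the highest vehicle value, that of replicate 1, while vehicle replicates 2 and 3 were well below. Vehicle replicates 2 and 3 were the libraries that stood apart from the others. The means were 1680 ± 404 CPM with vehicle and 2467 ± 263 CPM with insulin. Their log2 fold change was 0.55 ± 0.28 (SE), a fold of 1.47 with a 95% confidence interval from 0.937 to 2.30 (unadjusted p = 0.0839 and adjusted p = 0.852, edgeR). The unadjusted p was 0.0490 by DESeq2, 0.0461 with a GC offset and 0.0229 without vehicle replicate 1, the vehicle library nearest to the insulin group. Those fits also put more of all genes under 0.05 before adjustment. They had 507 of 13377, 483 of 13377 and 1349 of 13750 genes, in that order, against 383 of 13377 in the main edgeR fit. In the other 12 alternatives the p of Fabp1 ran above 0.05, up to 0.236 without insulin replicate 1. Its adjusted p over all 15 was 0.506 to 0.9997. The log2 fold change of Fabp1 stayed positive in all 15, between 0.41 and 0.77, and was 0.48 without vehicle replicate 2. All 15 refit the same libraries. Since the groups did not overlap, leaving out 1 library could hardly turn the sign, so its constancy adds no independent evidence.

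Fabp2 encodes intestinal fatty acid binding protein, which is most abundant in enterocytes and is also transcribed in mouse liver. It lies on chromosome 3 (122895072 to 122899506, plus strand). Vehicle replicates 1, 2 and 3 were at 149, 144 and 115 CPM and insulin replicates 1, 2 and 3 at 145, 154 and 118 CPM. In both groups replicate 3 was lowest, and the groups overlapped almost fully. With insulin over vehicle, the log2 fold change was 0.031 ± 0.23 (SE; adjusted p = 0.974, edgeR), with a 95% confidence interval of the fold from 0.710 to 1.47. Of 9 enterocyte markers, Sis, Alpi, Cdx1 and Cdx2 were at 0 in all 6 libraries and Lct was under 0.1 CPM. The summed marker level, 179 to 340 CPM with vehicle and 344 to 613 CPM with insulin, came almost wholly from Apoa4 and Anpep, which hepatocytes also express. Apoa4 met the study's criteria, at 1.23 ± 0.38 on the log2 scale (SE; unadjusted p = 0.0117, edgeR).

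Fabp4 encodes adipocyte fatty acid binding protein, found in adipocytes, macrophages and endothelial cells. It lies on chromosome 3 (10204088 to 10208576, minus strand). Its level was 24.5, 17.4 and 22.9 CPM in vehicle replicates 1, 2 and 3 and 45.0, 22.5 and 17.3 CPM in insulin replicates 1, 2 and 3. Insulin replicate 1 stood above the other 5 libraries, while insulin replicate 3 was the lowest of all. For Fabp4 the log2 fold change was 0.39 ± 0.37 (SE; adjusted p = 0.853, edgeR), and without insulin replicate 1 it was -0.11. Fabp5 encodes the epidermal binding protein, which macrophages and other cells also make, and lies close to Fabp4 on the same chromosome (10012548 to 10016607, plus strand).

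Of Fabp5, vehicle replicates 1, 2 and 3 held 7.14, 11.8 and 18.9 CPM and insulin replicates 1, 2 and 3 held 22.2, 9.87 and 15.2 CPM. Insulin replicate 1 was again highest, vehicle replicate 1 was lowest, and the groups overlapped. Its log2 fold change was 0.32 ± 0.42 (SE; adjusted p = 0.864, edgeR) and became -0.0044 without insulin replicate 1. Fabp5l2, a gene listed as Fabp5-like, had no count in any library, and how reads that match both genes were assigned is not given in the sources used here.

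Markers of macrophages and adipocytes were read beside Fabp4, Fabp5, Cd36 and Lpl, which those cells also express. All 10 macrophage markers were detected, and their summed level was 374 to 543 CPM with vehicle and 390 to 700 CPM with insulin. Insulin replicate 1, the highest library for Fabp4 and Fabp5, was also the highest for this sum and for 5 of the 10 markers, among them Marco and Cd5l at 135 and 179 CPM, while 3 markers were highest in vehicle replicate 3 and 2 in vehicle replicate 2. Of 8 adipocyte markers, Adipoq, Plin1, Retn and Lep were under 0.1 CPM in every library and Lep was at 0 throughout. The summed adipocyte level was 13.3 to 119 CPM with vehicle and 50.6 to 208 CPM with insulin, highest in insulin replicate 1, and Cfd and Plin4 made up most of it. The part of macrophage content in the values of Fabp4 and Fabp5 was not tested. All 10 endothelial markers were detected as well, at a summed 178 to 403 CPM with vehicle and 239 to 251 CPM with insulin, highest in vehicle replicate 3, where Cd36 and Lpl were lowest. All 10 hepatocyte markers were present, at a summed 80992 to 180100 CPM with vehicle and 68518 to 84105 CPM with insulin, highest in vehicle replicate 2. Alb made up most of this sum, at 138550 CPM in vehicle replicate 2. Single markers were highest in vehicle replicate 2 for 4 of 10, in vehicle replicate 3 for 4, and in insulin replicates 1 and 2 for 1 each. Apoa1, Tat, Ass1 and Hnf4a were lowest in vehicle replicate 2. Of these 10, 7 had negative log2 fold changes (median -0.68, and -0.38 without vehicle replicate 2) and 1 met the study's criteria, and of 8 muscle markers 0 reached 0.2 CPM. The 10 periportal hepatocyte markers summed to 13176 CPM in vehicle replicate 3, the lowest library for Fabp1, Slc27a2, Fabp2, Cd36 and Lpl, against 3761 to 5428 CPM in the other 5, and all 10 had negative log2 fold changes, 6 of 10 without that library. Erythroid markers, 4 of 5 tested lower with insulin by the study's criteria, were highest in vehicle replicate 2, at a summed 1588 CPM against 312 to 627 CPM elsewhere, and 0 of the 5 met the criteria without that library. These counts without a library were added after the data were seen. The part of either in the values of the 10 genes was not tested.

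Within the Fabp family, Fabp1 held nearly all of the signal. Of the CPM per kilobase of the 9 Fabp genes in the table, it took 95.0, 92.9 and 93.7% in vehicle replicates 1, 2 and 3 and 95.4, 95.5 and 96.0% in insulin replicates 1, 2 and 3. Fabp2 took 2.90 to 5.09%, and Fabp4, Fabp5 and Fabp7, the brain-type binding protein, took at most 0.971, 0.710 and 0.977%. Fabp6 and Fabp9 were at 0 in all libraries. The ratio of Fabp1 to Fabp2 counts, which does not depend on the scaling of the libraries, was 14.4, 10.5 and 12.2 with vehicle and 18.8, 16.1 and 18.8 with insulin. The groups did not overlap for this ratio, with means of 12.3 ± 1.95 and 17.9 ± 1.59. Fabp2 itself differed by 0.031 on the log2 scale, so the ratio largely restates the Fabp1 difference. For this ratio an exact two-sided permutation test gave p = 0.1, the smallest that 3 against 3 mice allows, and p = 0.7 after adjustment over the 7 ratios compared. For the other 6 ratios, the remaining pairs of the 4 Fabp genes and Acsl1 to Acsl5, the groups overlapped (exact permutation p = 0.5 to 0.9).

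**Figure D3:**
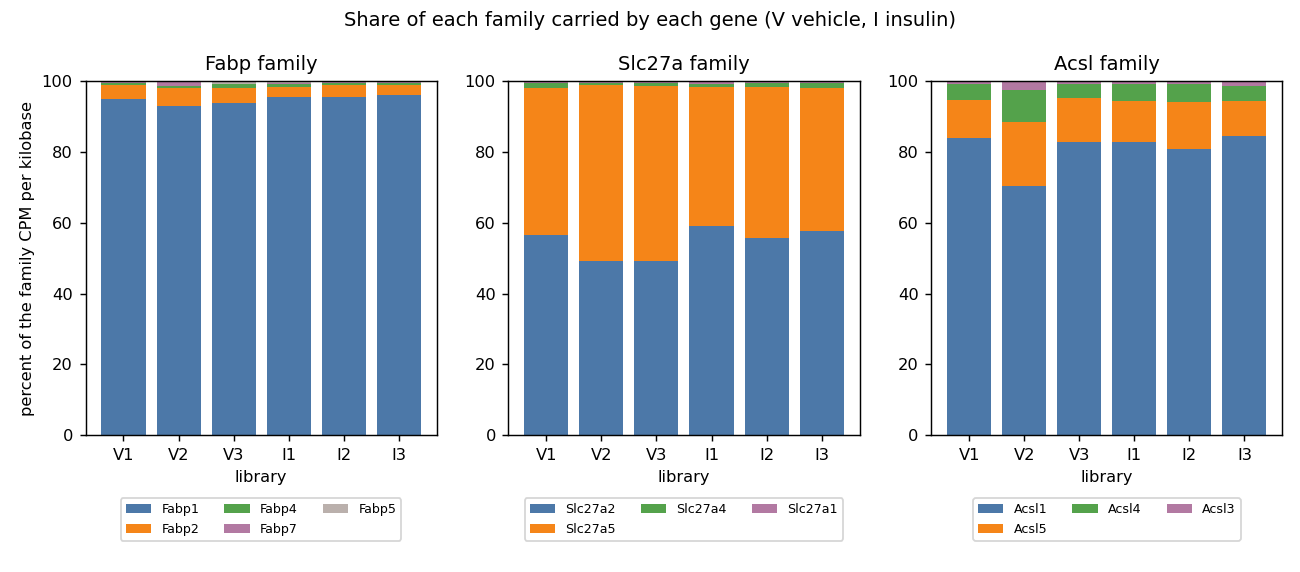
Percent of each family's summed CPM per kilobase (y axis) carried by its genes in the 6 libraries (x axis; V, vehicle; I, insulin), for the Fabp, Slc27a and Acsl families; genes that never reached 0.5% are not drawn. Fabp1 carries 92.9 to 96.0% of its family, Slc27a2 and Slc27a5 share theirs, and Acsl1 drops to 70.3% in vehicle replicate 2.

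Acsl1 encodes the main long-chain acyl-CoA synthetase of liver and is a PPARα target. It lies on chromosome 8 (46471037 to 46536051, plus strand) and overlaps Gm45244 on the opposite strand, which had at most 4 counts. Values were 1211, 1131 and 1151 CPM in vehicle replicates 1, 2 and 3 and 1128, 1024 and 1241 CPM in insulin replicates 1, 2 and 3. The 6 libraries lay within a factor of 1.21, the narrowest range of the 10 genes, and the groups overlapped. Its log2 fold change was -0.042 ± 0.23 (SE; adjusted p = 0.964, edgeR), and the 95% confidence interval of the fold ran from 0.669 to 1.41.

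Acsl5 encodes a synthetase of mitochondria and endoplasmic reticulum linked to triglyceride synthesis. It lies on chromosome 19 (55251938 to 55297720, plus strand) and overlaps Zdhhc6 on the opposite strand, a gene with 1177 to 1369 counts per library. Since strand use in the counting is not given in the sources used here, the Acsl5 counts may hold reads of Zdhhc6. Its level was 168, 316 and 184 CPM in vehicle replicates 1, 2 and 3 and 174, 185 and 156 CPM in insulin replicates 1, 2 and 3. Vehicle replicate 2 was far above the other 5 libraries, which overlapped closely. The log2 fold change was -0.37 ± 0.29 (SE; adjusted p = 0.852, edgeR) and -0.032 without vehicle replicate 2. Of the 5 Acsl genes, Acsl1 took 70.3 to 84.6% of the CPM per kilobase, Acsl5 9.77 to 18.0%, Acsl4 4.10 to 9.14% and Acsl3 0.739 to 2.53%, and vehicle replicate 2 gave the lowest share of Acsl1 and the highest of the other 3. Acsl6 took at most 0.0051%.

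**Figure D4:**
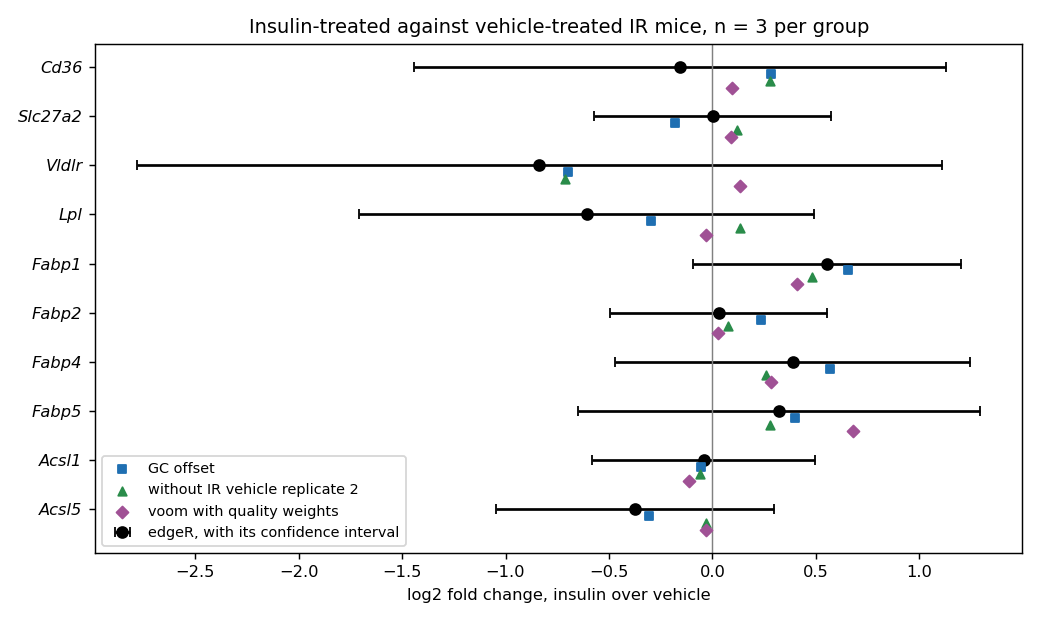
Log2 fold change of insulin-treated over vehicle-treated IR mice (x axis) for the 10 genes (y axis), with the edgeR estimate and its 95% confidence interval in black and the estimates with a GC offset, without vehicle replicate 2 and by voom as coloured marks. All 10 intervals include 0; the mark without vehicle replicate 2 lies at 0.28 for Cd36 and 0.13 for Lpl, on the other side of 0 from the black point.

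Spread between mice was wider with vehicle than with insulin for most genes in these data. The coefficient of variation was higher in the vehicle group for 7 of the 10 genes, beside 85.1% of all genes tested, and Fabp4, Acsl1 and Vldlr were the exceptions. It was 70.5% for Lpl, 62.7% for Cd36 and 36.4% for Acsl5 with vehicle, and 24.6, 38.6 and 8.55% with insulin. Vehicle replicate 2 was the highest or lowest library for 4 of the 10 genes (Slc27a2, Acsl5, Cd36 and Lpl), beside 73.2% of all genes.

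Genes whose profile over the 6 libraries was most like that of each member were found by the root-mean-square difference of centred log2 CPM, among genes with a mean of at least 10 CPM. For Fabp1 these included Nfya and Plekhm1, at differences of 0.10 and 0.11, where Fabp1 itself had a standard deviation of 0.36. For Cd36 they were Trim30d, Iigp1 and Trim30a, at 0.14, 0.18 and 0.20 beside a standard deviation of 0.80. Iigp1, for instance, had 1152, 1715 and 348 CPM in vehicle-treated and 757, 1151 and 622 CPM in insulin-treated mice, and as for Cd36, vehicle replicate 2 was highest and vehicle replicate 3 lowest. Acsl5 was matched by Mef2a, Ptges3-ps and Deptor (0.026, 0.052 and 0.053) and Lpl by Tusc3, Rps6ka3 and Cd38 (0.11, 0.13 and 0.14), profiles in which vehicle replicate 2 was highest. Fabp5 came nearest to Laptm5, Csf1r and Cep68 (0.30, 0.30 and 0.31), of which Csf1r is in the macrophage marker list. Fabp4 came nearest to Nlrp12 and Aass (0.17 and 0.18), Vldlr to Abcd2, Socs2 and Upp2 (0.33, 0.34 and 0.60), Slc27a2 to Rnf149, Fchsd2 and Ncoa4 (0.041 to 0.053), Fabp2 to Kank1, Ints12 and Mccc2 (0.044 to 0.058), and Acsl1 to Pan2, Kansl1 and Psme3 (0.052 to 0.058). Beside these differences, the standard deviation of the member itself was 0.33 for Acsl5, 0.63 for Lpl, 0.55 for Fabp5 and 0.46 for Fabp4. It was 1.14 for Vldlr, 0.14 for Slc27a2, 0.17 for Fabp2 and 0.088 for Acsl1. A small difference for a gene that varied little, such as Acsl1, is therefore not a closer match. The matches are likenesses over 6 libraries that share their depth and GC differences, and nothing further was tested on them.

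The rest of the pathway was read from 7 lists with 100 other genes, of which 91 were tested. By the study's criteria 1 of the 91 was higher and 1 lower, beside 1.0 and 1.86% of all genes tested. Groups did not overlap for 4 in the higher and 2 in the lower direction, beside 6.25 and 6.04% of all genes. No adjusted p was under 0.05 (edgeR). The log2 fold changes were positive for 44 and negative for 47 genes, with a median of -0.0069. The one gene past the criteria in the higher direction was Fgf21, a fasting-induced hepatokine and PPARα target. Vehicle-treated mice had 6.66, 2.70 and 5.87 CPM, and insulin-treated mice 9.91, 8.49 and 13.1 CPM. All 3 insulin values were above the vehicle values, and the log2 difference was 1.04 ± 0.38 (SE; unadjusted p = 0.0247 and adjusted p = 0.852, edgeR). In the lower direction it was Ahr, the aryl hydrocarbon receptor, known as a regulator of hepatic Cd36. Its level was 19.1, 57.0 and 31.5 CPM in vehicle-treated and 12.2, 12.8 and 23.2 CPM in insulin-treated mice, a difference of -1.16 ± 0.44 on the log2 scale (SE; unadjusted p = 0.0300 and adjusted p = 0.852, edgeR). Vehicle replicate 2 was the highest library, and the groups overlapped. Leaving out a library ended the call of Fgf21 without insulin replicate 3 (0.86) and that of Ahr without vehicle replicate 2 (-0.65), insulin replicate 1 (-0.99) or insulin replicate 2 (-1.02). Voom ended both calls, at 0.66 for Fgf21 and -0.73 for Ahr. Without vehicle replicate 1, 13 of the other pathway genes met the criteria. In that fit 1349 of 13750 genes had an unadjusted p under 0.05 (edgeR), against 383 of 13377 with all 6 libraries.

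Of the 19 PPARα target genes, 8 had positive and 11 negative log2 fold changes, with a median of -0.026. Acaa1b, a peroxisomal thiolase of fatty acid oxidation, had the smallest p after Fgf21, at 0.51 ± 0.32 (SE; unadjusted p = 0.147, edgeR). Among the 18 regulators, 12 were positive and 6 negative. Klf15, a fasting-induced transcription factor, reached 234 CPM in vehicle replicate 3, beside 45.9 to 66.0 CPM in the other 5 libraries, and its log2 fold change of -1.04 became 0.049 without that library. Ppara itself differed by 0.040 ± 0.35 (SE), with 85.5 to 226 CPM in vehicle-treated and 147 to 160 CPM in insulin-treated mice.

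Of the 11 tested genes of other uptake and transport, 7 were positive and 4 negative, and Lrp1 and Lsr, a pair of lipoprotein receptors, had the smallest p. Lrp1 had 293, 263 and 315 CPM in vehicle-treated and 387, 325 and 436 CPM in insulin-treated mice, without overlap, and differed by 0.40 ± 0.23 on the log2 scale (SE; unadjusted p = 0.120, edgeR). With a GC offset its difference was -0.14. Lsr was at 0.54 ± 0.38 (SE) and at -0.11 with a GC offset. Among 7 other binding proteins, Pltp, the phospholipid transfer protein, differed by 0.90 ± 0.43 (SE; unadjusted p = 0.0711, edgeR), with overlapping groups, and by 0.60 without vehicle replicate 2. Acbd5, a peroxisomal acyl-CoA binding protein, reached 416 CPM in vehicle replicate 2, beside 156 to 213 CPM elsewhere, and differed by -0.65 ± 0.33 (SE), and by -0.21 without that library. The 9 tested acyl-CoA synthetases outside the 10 genes were led by Acsf2 (0.43 ± 0.30, SE) and Acsl4 (-0.47 ± 0.37, SE), which were at 0.20 and 0.099 without vehicle replicate 2.

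Acyl-CoA thioesterases, which undo the activation step, were negative for 8 and positive for 3 of 11 genes, with a median of -0.17. Over all 13377 genes tested, 6876 were negative. By the study's criteria 0 of the 11 were called, and groups did not overlap for 1 of them, lower with insulin. Them4 and Acot12 had the smallest p, at -0.70 ± 0.33 and -0.54 ± 0.25 (SE; unadjusted p = 0.0663 and 0.0650, edgeR), or -0.42 and -0.46 without vehicle replicate 2, and vehicle and insulin values overlapped for both. Lipase partners and inhibitors were positive for 8 and negative for 8 of 16. Apoc3, an inhibitor of lipoprotein lipase, had 1478, 2080 and 1976 CPM in vehicle-treated and 1420, 1396 and 1419 CPM in insulin-treated mice, without overlap, and a difference of -0.39 ± 0.26 (SE; unadjusted p = 0.169, edgeR).

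**Figure D5:**
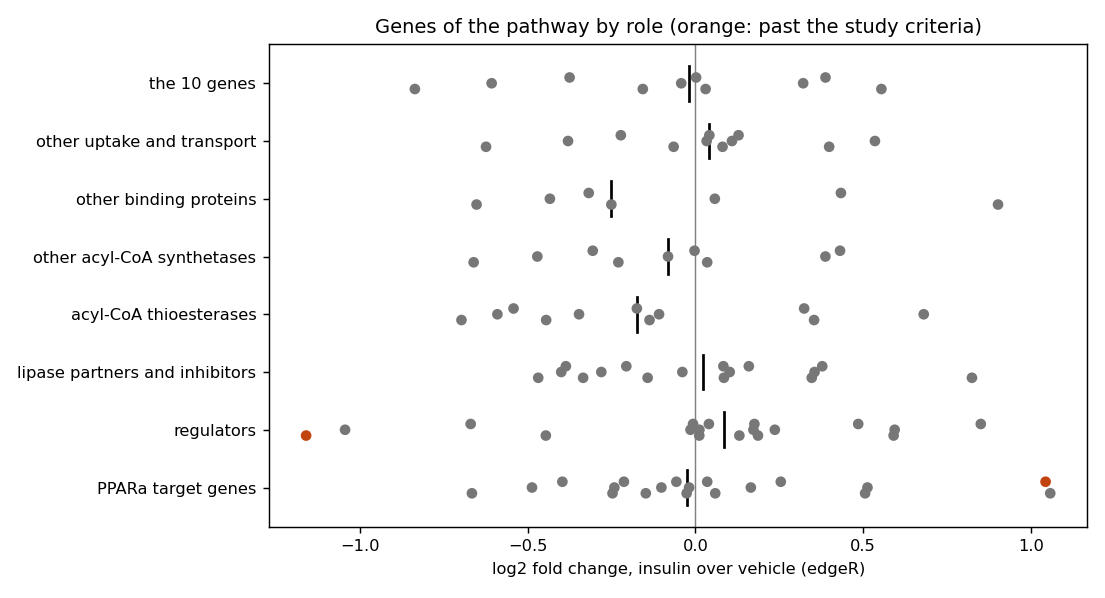
Log2 fold change of insulin-treated over vehicle-treated IR mice (x axis) for each tested gene of the 10 genes and of 7 other lists of the pathway (y axis); each point is a gene, small vertical shifts separate points, and the black line is the list's median. The 2 orange points, Ahr at -1.16 and Fgf21 at 1.04, are the genes past the study's criteria, and the median of every list lies between -0.25 and 0.086.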

How the data were processed

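Liver RNA of 6 mice was sequenced, 1 library per mouse, and groups and replicate numbers came from the sample labels. The deposited file gave, for every gene and library, the number of reads that the authors had counted, with no scaling and no pooling of mice. Libraries were made with the NEBNext Ultra RNA kit, sequenced on an Illumina HiSeq and aligned with Bowtie2 2.2.3 to mm10. The program, annotation and strand setting used for counting are not given in the sources used here. Bowtie2 does not split reads at introns, so reads that span exon junctions can be missing from the counts.

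Groups were compared by edgeR 4.0.16 (glmQLFit and glmQLFTest, R 4.3.3) with TMM normalization and filterByExpr (minimum count 10, minimum total 15), with Benjamini-Hochberg adjustment over 13377 genes. The script was checked on simulated counts. The authors had used DESeq2, run here as an alternative (1.42.0), beside limma voom (3.58.1), other size factors and filters, a replicate block, a loess offset for GC content (span 0.5) and leaving out each library. Precision was set by the spread between libraries of a group (common biological coefficient of variation 0.357). This holds differences between libraries, such as that of vehicle replicate 2 along GC content, as well as between mice. Transcript lengths and GC content came from GENCODE M21.

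The genes, lists and tests were chosen with earlier results of these data known. Named are all 10 genes, the 2 genes with the smallest p of each other list and, per member, the 3 genes of most similar profile. Some genes that this rule selects are not reported here. Fabp5l2, Fabp7, Ppara, overlapping genes, other family members and markers were named after their values were seen.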

Additional observations from a re-analysis of the deposited data

How the results depend on the processing

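Of 24 genes followed under 15 alternatives, 359 values were obtained (Vldlr did not pass a mean of 1 CPM), and 28 had another sign than in the report. An adjusted p under 0.05 was reached by 0 genes in each alternative, with 99 to 1349 genes at an unadjusted p under 0.05 (edgeR, DESeq2 and voom fits). The number of the 10 genes past the study's criteria went from 0 to 1 (Fabp1) with DESeq2, a GC offset and without vehicle replicate 1, and leaving out a library gave 0 to 1 genes. Groups separated for 1 to 2 of the 10 when a library was left out. Groups separate more easily with fewer libraries, and the share of all genes that did so in these fits is not given here. The count therefore cannot show whether the 10 genes separated more often than other genes. Other pathway genes past the criteria numbered 2, and 4 without a filter, 1 with voom, 4 with a GC offset, 4 with the replicate block and GC offset together and 1 to 13 without 1 library. For all genes, 383 became 742 without a filter, 213 with voom and 99 to 1349 without 1 library, lowest without insulin replicate 1 and highest without vehicle replicate 1.

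No pairing by replicate number was seen: same-numbered libraries correlated at -0.039, 0.069 and 0.017 in their deviations from the group means. Other pairs of a vehicle and an insulin library ran from -0.11 to 0.089. With 3 mice per group this check cannot exclude a pairing. With the replicate number as a block, 321 genes passed the criteria and 0 of the 10, and Cd36 was at 0.055.

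Sign changes were as follows. With a GC offset the values were 0.28 for Cd36, -0.18 for Slc27a2, -0.14 for Lrp1, -0.11 for Lsr and -0.12 for Acaa1b, and with the block added 0.39 for Cd36, -0.15 for Slc27a2, -0.066 for Lrp1 and -0.023 for Lsr. Voom gave 0.094 for Cd36 and 0.13 for Vldlr. Slc27a2 was at -0.011 with RLE size factors and with DESeq2, and Acsl1 at 0.0018 with upper-quartile factors. Leaving out 1 library turned Cd36 (-0.59 to 0.28), Fabp2 (-0.079 to 0.15), Fabp4 (-0.11 to 0.65), Fabp5 (-0.0044 to 0.74), Slc27a2 (-0.078 to 0.12), Acsl1 (-0.10 to 0.026), Lpl (-0.94 to 0.13), Acsl4 (-0.71 to 0.099) and Klf15 (-1.40 to 0.049). The cause was not tested. With 3 mice per group, differences within the confidence intervals given were not excluded.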
